A study of Mus musculus with 2 samples.

Results

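The genes described here are Cd74, H2-Aa, H2-Ab1, H2-Eb1, H2-K1, H2-D1, B2m, Ifitm3, Ifitm2 and Bst2, which are 10 of the 27998 genes listed for single cells of the murine retinal pigment epithelium (RPE). They were chosen by symbol, as genes of the major histocompatibility complex (MHC) and of the interferon response, and all 10 were found in the files. The cells came from 2 male C57BL/6J mice, R1 and R2, which the labels describe as 4-5 weeks old and whose eyes were taken at P36. There was no treatment and no second condition, the 2 mice are the only replicates, and RPE sheets from the 2 eyes of each animal were combined before viable cells were sorted by calcein AM and DAPI. Values are counts of molecules, told apart by unique molecular identifiers (UMIs). Cells needed at least 500 genes and at most 5% of UMIs from mitochondrial genes, and 2782 of 2844 cells of R1 and 2966 of 2994 cells of R2 remained, and 12 cell barcodes occurred in both mice. Cells were split by the share of their UMIs taken by Ttr, the gene of the thyroxine and retinol carrier transthyretin, which the RPE transcribes at a very high level. Cells at or over 5% are called high-Ttr (2723 in R1, 2947 in R2) and cells under 3% low-Ttr (59 and 19), and no cell lay between. In GENCODE coordinates of GRCm38, H2-K1 (17, 33996017 to 34000347), H2-Ab1 (17, 34257689 to 34269419), H2-Aa (17, 34282744 to 34287823), H2-Eb1 (17, 34305867 to 34316674) and H2-D1 (17, 35262730 to 35267499) lie on 1 chromosome. B2m lies on chromosome 2 (122147686 to 122153083), Ifitm2 and Ifitm3 on chromosome 7 (140954837 to 140955987 and 141009586 to 141010770), Bst2 on chromosome 8 (71534255 to 71537456) and Cd74 on chromosome 18 (60803848 to 60812652), and all 10 are annotated as protein coding.

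MHC class I molecules, built from a heavy chain such as the products of H2-K1 and H2-D1 and the light chain beta-2 microglobulin (B2m), carry peptides from inside the cell to the surface of nearly every nucleated cell. MHC class II molecules are built from an alpha and a beta chain (H2-Aa with H2-Ab1, and H2-Eb1 as the beta chain of a second isotype), are chaperoned by the invariant chain Cd74, and are made in the main by macrophages, dendritic cells and B cells, although interferon gamma can switch them on elsewhere through the co-activator Ciita. Ifitm2, Ifitm3 and Bst2 (tetherin) encode membrane proteins that hinder the entry or release of enveloped viruses and that interferons raise, and the RPE is known as part of the barrier that keeps the eye poor in immune reactions.

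Promoter sequence is shown for members that hold, near the gene's start, letters through which class II and interferon-responsive genes are known to be controlled. Ifitm2 also holds such letters but is not printed. RefSeq windows of GRCm38.p6, from 250 bases before to 50 bases after a gene's start, were at hand for 8 of the 10 members. The Y box, written CTGATTGG and bound by NF-Y, was found on either strand in 4.10% of 32851 such windows. A core of the interferon-stimulated response element written as 2 GAAA blocks spaced by any 2 bases was found in 3.44%, and a form that is 1 base shorter, GAANNGAAA, in 7.52%. These motifs were chosen after the sequences had been seen, a match is a description of letters only, and no test was made. In each line the bases of the match are in capitals and the sequence runs 5′ to 3′ on the strand of the gene. H2-Aa (chr17:34287837-34287934, minus strand) and H2-Eb1 (chr17:34305745-34305842, plus strand) held the Y box at -51 and -62 from the start. H2-K1 (chr17:34000379-34000477, minus strand) and H2-D1 (chr17:35262934-35262962, plus strand) held GAANNGAAA on the opposite strand, so that it reads TTTCACTTC, at -90 and -150, in a stretch that both promoters share, and each also held the Y box on the opposite strand, at 9 and -53. The printed stretch of H2-D1 lies inside the gene as placed by GENCODE, which starts at 35262730. Its positions count from a RefSeq start further downstream. B2m (chr2:122147508-122147607, plus strand) held the GAAA pair at -139, and Bst2 (chr8:71537537-71537642, minus strand) held it as an overlapping pair at -130 and -124. In Ifitm3 (chr7:141010706-141010735, minus strand) it lay at 3 and again at 20 after the start, of which the second is printed. That printed stretch also lies inside the gene as placed by GENCODE (141009586 to 141010770). Ifitm2 held the GAAA pair at -46.
H2-Aa: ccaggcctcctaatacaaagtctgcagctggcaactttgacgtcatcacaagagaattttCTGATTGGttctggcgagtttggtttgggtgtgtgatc
H2-Eb1: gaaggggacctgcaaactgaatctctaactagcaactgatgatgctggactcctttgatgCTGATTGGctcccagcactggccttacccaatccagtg
H2-K1: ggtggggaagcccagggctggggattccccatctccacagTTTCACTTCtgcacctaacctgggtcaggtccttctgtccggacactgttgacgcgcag
H2-D1: atctcctcagTTTCACTTCtgcacctaac
B2m: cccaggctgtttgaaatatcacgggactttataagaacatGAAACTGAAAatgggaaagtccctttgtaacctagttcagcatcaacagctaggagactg
Bst2: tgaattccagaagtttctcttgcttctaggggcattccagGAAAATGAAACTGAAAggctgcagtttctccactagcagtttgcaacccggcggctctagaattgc
Ifitm3: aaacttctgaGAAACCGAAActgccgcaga

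The depth and the kinds of cell bear on every value below. High-Ttr cells had a median of 8751 UMIs in R1 and 8158 in R2, and low-Ttr cells 3200 and 3836. Ttr took 5.18% of UMIs or more in every high-Ttr cell of R1 and 5.14% or more in R2, while low-Ttr cells reached at most 2.66% in R1 and 0.755% in R2, with 12 and 4 cells between 5% and 6% and 3 and 0 cells between 2% and 3%. A cell was called marked by a cell type when 3 or more genes of that type's list had a UMI. All high-Ttr cells were marked by RPE genes, and summed over the 8 RPE genes of the list their level per 10000 UMIs was 399.9 (R1) and 450.5 (R2), and that of low-Ttr cells 35.3 and 24.4. Of the low-Ttr cells, 44 of 59 and 11 of 19 were marked by a list of Pax6, Dkk3 and 3 further genes, 3 and 2 by fibroblast genes, 2 and 1 by macrophage or microglia genes, and 10 and 5 by none of these. RPE genes also marked 49 of the 59 low-Ttr cells of R1 and 13 of the 19 of R2. Among them were 36 of the 44 and 9 of the 11 Pax6/Dkk3-marked cells. In R1 they also held 2 of 2 macrophage-marked cells, 1 of 3 fibroblast-marked cells and 10 of 10 marked by none. In R2 these numbers were 0 of 1, 0 of 2 and 4 of 5. Macrophage or microglia genes also marked 2 high-Ttr cells in each mouse, and no cell was marked by B cell, T or NK cell, or dendritic cell genes. Choroidal melanocyte genes marked 55 high-Ttr cells in R1 and 36 in R2, and the Pax6 and Dkk3 list 10 and 2. Endothelial genes marked 2 and 1, pericyte genes 1 and 3, fibroblast genes 0 and 3, and rod genes 2 and 0. Intervals given in brackets are exact 95% intervals, from the Poisson distribution for levels and after Clopper and Pearson for shares, and they cover counting error only.

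In high-Ttr cells the 10 genes formed 3 tiers that were the same in both mice. A 3′ tag counts a molecule once whatever its length, so length was not corrected for when genes were compared. Other differences between genes in how well their reads are counted were not measured. B2m was the most abundant at 9.29 UMIs per 10000 in R1 (9.17 to 9.41) and 10.1 in R2 (9.96 to 10.2), and stood at rank 96 and 86 among all genes detected. Ifitm2 followed with 3.47 (3.40 to 3.54) and 3.05 (2.99 to 3.12), and Bst2 with 2.64 (2.57 to 2.70) and 1.74 (1.70 to 1.79). All 3 genes were found in most high-Ttr cells, B2m in 96.8% and 94.9%, Ifitm2 in 84.2% and 79.4%, and Bst2 in 71.1% and 59.7%.

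The class I heavy chains and Ifitm3 formed the second tier, more than 10 times below B2m. H2-K1 stood at 0.300 UMIs per 10000 in R1 (0.279 to 0.322) and 0.345 in R2 (0.324 to 0.367), and H2-D1 at 0.278 (0.258 to 0.299) and 0.253 (0.235 to 0.271). Ifitm3 was at 0.254 (0.235 to 0.274) in R1 and 0.105 (0.0936 to 0.117) in R2. H2-K1 lay above H2-D1 beyond counting error in R2, whereas their intervals overlapped in R1, and Ifitm3 was clearly the lowest of the 3 in R2 but overlapped H2-D1 in R1. A UMI of H2-K1 was found in 18.8% and 19.7% of high-Ttr cells, of H2-D1 in 17.3% and 15.9%, and of Ifitm3 in 13.9% and 6.41%. Reads of a 3′ tag that fit more than 1 of the closely related class I genes, or both Ifitm2 and Ifitm3, cannot be assigned with certainty. Single members of these families, and their distance from B2m, carry that uncertainty.

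The class II genes formed the lowest tier. Summed over 2723 high-Ttr cells, R1 held 125 UMIs of Cd74, 18 of H2-Aa, 35 of H2-Ab1 and 17 of H2-Eb1, and over 2947 cells R2 held 15, 1, 6 and 0. The level of Cd74 was thus 0.0487 UMIs per 10000 in R1 and 0.00508 in R2, and 0 UMIs of H2-Eb1 in R2 allow a share of up to 0.102% of cells with a UMI when 3 counts are taken as the limit, or 0.125% by the exact interval. The co-activator Ciita had no UMI in any class of cells in either mouse.

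**Figure D1:**
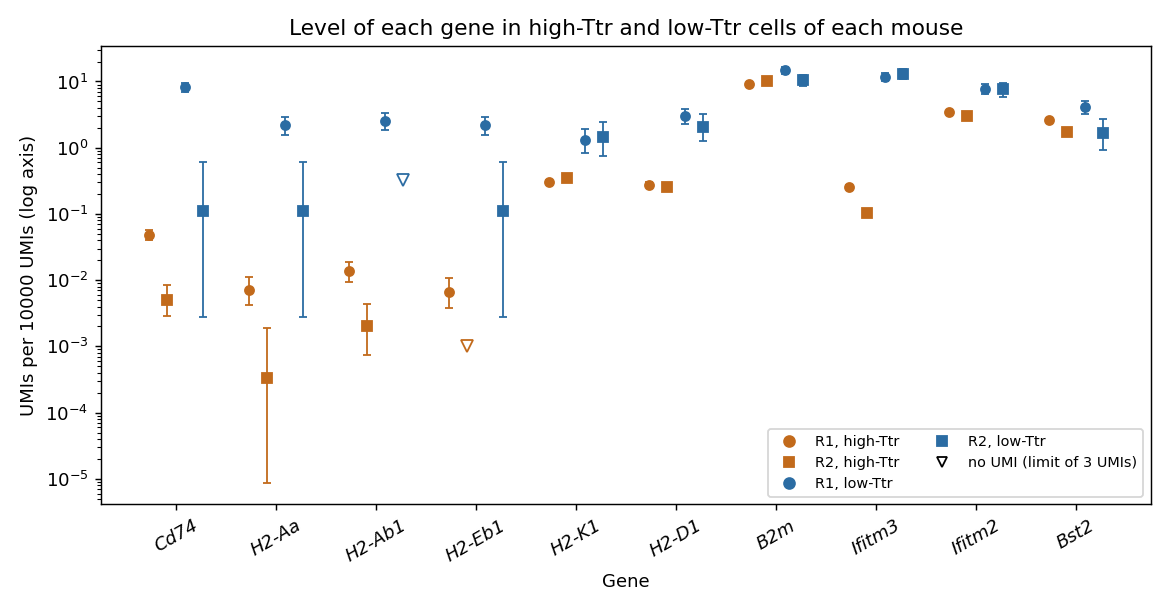
Level of each gene in UMIs per 10000 UMIs on a log axis, by mouse (circles R1, squares R2) and class of cells (orange high-Ttr, blue low-Ttr); bars are exact 95% Poisson intervals and open triangles mark genes without a UMI at the limit of 3 UMIs. Ifitm3 lies at 0.254 and 0.105 in high-Ttr cells and at 11.7 and 13.1 in low-Ttr cells, while B2m lies between 9.29 and 14.9 in all 4 groups.

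Depth set the share of cells with a UMI more than it set the level. High-Ttr cells were divided by their UMIs into 4 groups of equal size, whose median depths spanned 3829 to 15824 UMIs (R1) and 3272 to 19188 (R2). From the shallowest to the deepest group the share with a UMI of H2-K1 went from 10.6% to 27.3% in R1 and from 7.60% to 36.0% in R2, and that of Bst2 from 45.4% to 90.9% and from 34.2% to 85.6%. The level of H2-K1 stayed between 0.271 and 0.342 UMIs per 10000 in R1 and between 0.277 and 0.402 in R2, that of B2m between 9.01 and 9.67 and between 9.41 and 10.4, and that of Bst2 between 2.35 and 2.74 and between 1.70 and 1.82. Ifitm3 was the exception, with levels of 0.423, 0.319, 0.245 and 0.193 from the shallowest to the deepest group in R1 and of 0.148, 0.127, 0.116 and 0.0857 in R2. When each cell was thinned to 2000 UMIs, which left out no high-Ttr cell, a UMI was found in 5.73% and 5.46% of high-Ttr cells for H2-K1, 5.14% and 4.45% for H2-D1, 4.55% and 2.21% for Ifitm3, and 80.6% and 80.8% for B2m.

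**Figure D2:**
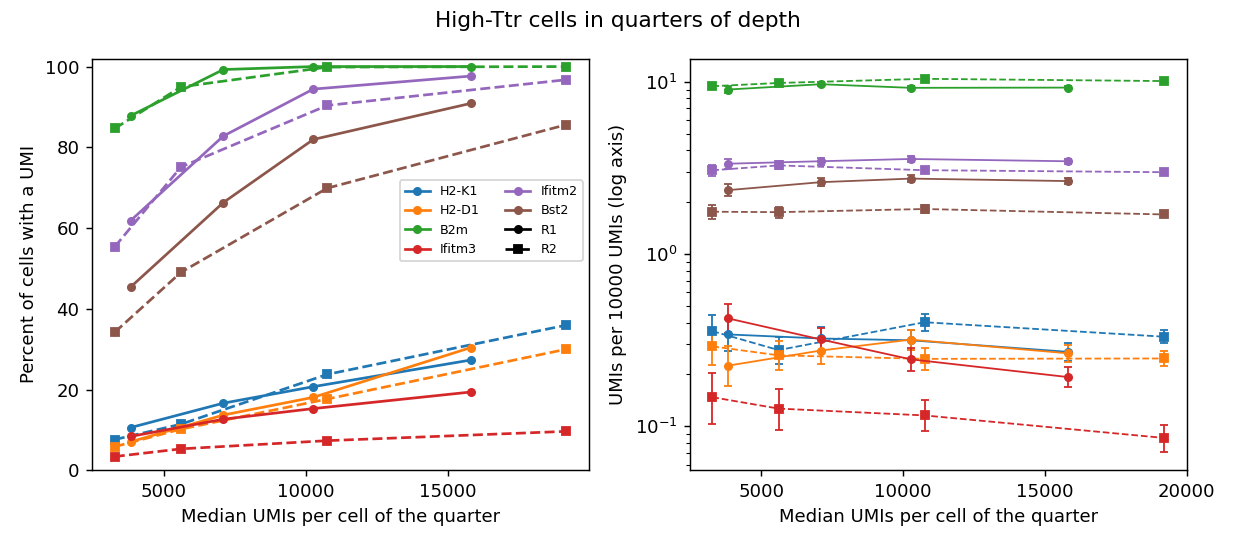
High-Ttr cells in 4 groups of depth, with the median UMIs per cell of a group on the x axis (solid lines and circles R1, dashed lines and squares R2). The left panel gives the percent of cells with a UMI, which goes up with depth for all 6 genes, and the right panel the level in UMIs per 10000 on a log axis with exact 95% Poisson intervals, where Ifitm3 goes from 0.423 to 0.193 in R1.

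The class II transcripts of R1 sat in very few cells. Of the 2723 high-Ttr cells, 2709 had no UMI of Cd74, 11 had 1, 1 had 2, 1 had 8 and 1 had 104, and in R2 2938 had none, 6 had 1, 2 had 2 and 1 had 5. Cells with 3 or more UMIs of Cd74 were therefore 2 of 2723 in R1 (0.0734%, 0.00890 to 0.265) and 1 of 2947 in R2 (0.0339%, 0.000859 to 0.189). The share of high-Ttr cells with any UMI of Cd74 was 0.514% and 0.305%. For C1qa, a complement gene of macrophages that RPE cells are not known to transcribe, it was 0.404% and 0.170%. Across the whole macrophage or microglia list, shares ran from 0% (Cx3cr1) to 0.734% (C1qb) in R1. In R2 they ran from 0% (Ptprc) to 0.271% (Fcer1g). Of that list only C1qb in R1 lay above Cd74, and no gene did in R2. Free RNA was not measured, and its part in these shares was not tested.

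Single cells show which transcripts came together. In R1, a low-Ttr cell of 2851 UMIs held 106 UMIs of Cd74, 39 of H2-Aa, 42 of H2-Ab1 and 35 of H2-Eb1, and all 10 macrophage or microglia genes of the list. A second low-Ttr cell of 2534 UMIs held 51 of Cd74, 3 of H2-Aa, 6 of H2-Ab1 and 6 of H2-Eb1, with 8 of the 10 macrophage genes. RPE genes were found in these low-Ttr cells too, 5 of the 8 in the first and 3 in the second. The high-Ttr cell with 104 UMIs of Cd74 also held 15 of H2-Aa, 27 of H2-Ab1 and 10 of H2-Eb1, and it carried 9 of the 10 macrophage genes together with 7 of the 8 RPE genes and 31 UMIs of Rpe65, the retinoid isomerase of the visual cycle. These 3 cells were the only cells of either mouse with 3 or more UMIs of H2-Aa, H2-Ab1 and H2-Eb1 each. In the order given, Ttr took 2.03%, 0.710% and 6.45% of their UMIs, beside a median of 11.2% in high-Ttr cells of R1.

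Other cells separated the parts of this pattern. The high-Ttr cell of R1 with 8 UMIs of Cd74 held 0 of the other class II genes and 0 of the 10 macrophage genes, at 10780 UMIs and 10.3% Ttr. Another high-Ttr cell of R1 carried 8 macrophage genes, 40 UMIs of C1qa and 84 of Lyz2 (lysozyme) but 0 UMIs of Cd74. Ttr took 6.24% of the UMIs of that cell. In R2, macrophage genes marked high-Ttr cells with 5 and 2 UMIs of Cd74 and 0 of the other class II genes, and a low-Ttr cell that carried all 10 macrophage genes held 1 UMI of Cd74, 1 of H2-Aa, 0 of H2-Ab1 and 1 of H2-Eb1. The macrophage-marked cells of R2 thus had little class II RNA, whereas 3 of the 4 in R1 had much. The macrophage-marked cell with 2 UMIs of Cd74, at 5.40% Ttr, was also 1 of the 4 cells of R2 just inside the limit of 5%.

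**Figure D3:**
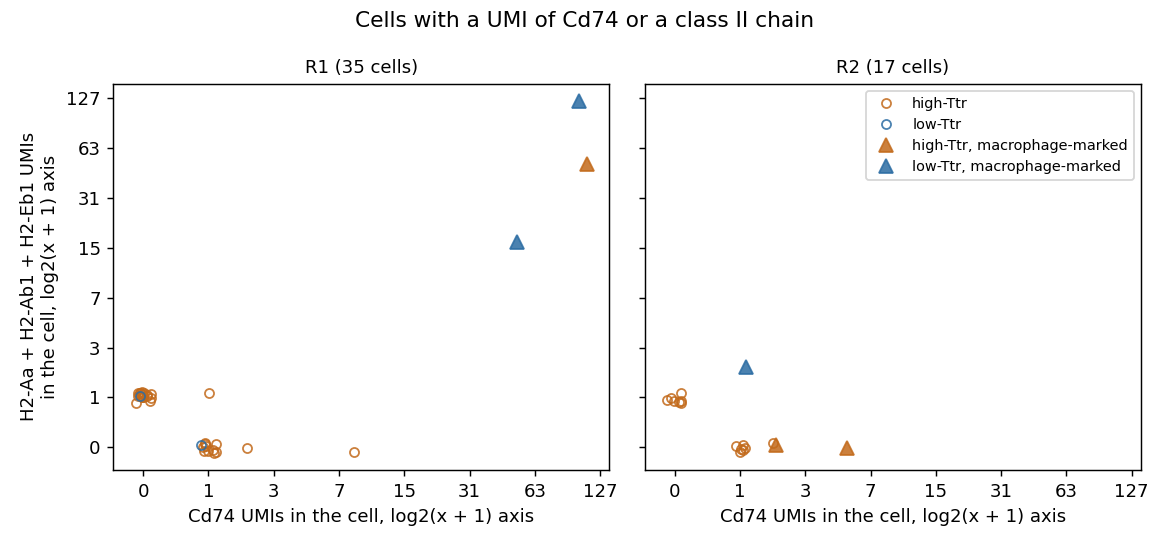
Each of the 35 cells of R1 and 17 cells of R2 with a UMI of Cd74, H2-Aa, H2-Ab1 or H2-Eb1, with its Cd74 UMIs on the x axis and the sum of its other class II UMIs on the y axis, both on log2(x + 1) axes with a small random shift; triangles carry 3 or more macrophage or microglia genes. The 3 triangles of R1 at 51, 104 and 106 UMIs of Cd74 stand apart from all other cells.

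Over all kept cells of R1, the 4 macrophage-marked cells of 2782 held 92.2% of the UMIs of Cd74, 95% of H2-Aa, 90.4% of H2-Ab1 and 86.4% of H2-Eb1. They held 10.8% of the UMIs of H2-D1, 3.27% of H2-K1, 2.74% of Ifitm3 and 0.531% of B2m. In R2, the 3 macrophage-marked cells of 2966 held 8 of 16 UMIs of Cd74 and 1 of 2, 0 of 6 and 1 of 1 UMIs of H2-Aa, H2-Ab1 and H2-Eb1. Outside the marked cells no cell had more than 1 UMI of H2-Aa, H2-Ab1 or H2-Eb1, and no more than 8 of Cd74 in R1 or 2 in R2.

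Co-detection of class II chains was rare elsewhere. Among high-Ttr cells without Cd74, a UMI of H2-Aa, H2-Ab1 or H2-Eb1 was found in 17 of 2709 in R1 (0.628%, 0.366 to 1.00) and in 7 of 2938 in R2 (0.238%, 0.0958 to 0.490), and 0 of these cells had UMIs of 2 of the 3 genes. Among high-Ttr cells with 1 or 2 UMIs of Cd74, 1 of 12 in R1 and 0 of 8 in R2 had such a UMI, too few cells to set these shares apart. Of the low-Ttr cells that carried fewer than 3 macrophage genes, 1 of 57 in R1 and 0 of 18 in R2 had a UMI of Cd74.

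Low-Ttr and high-Ttr cells were then compared on UMIs summed per mouse and class, with the mouse as a block, in edgeR's quasi-likelihood test with Benjamini-Hochberg adjustment over 11576 genes. At an adjusted p of 0.05, 1272 genes (11%) were called, 492 (4.25%) higher and 780 (6.74%) lower in low-Ttr cells. The split depended on the scaling, since 38.7% of calls were higher with TMM scaling, 65.9% with library totals alone and 62.9% with DESeq2, while the median log2 fold change of all genes moved from -0.39 to 0.20 and 0.27. Fold changes of the class I members, Ifitm3, Ifitm2 and Bst2 are therefore also given after subtraction of that median. The 10 genes had been named with earlier results of these cells in view, so p-values below describe the fit across all genes and are no independent support. Replication is 2 mice.

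Ifitm3 differed most clearly between the classes in both mice. R1 held 225 UMIs in 59 low-Ttr cells and 652 in 2723 high-Ttr cells, and R2 held 119 in 19 cells and 310 in 2947 cells, which gives 11.7 and 13.1 UMIs per 10000 in low-Ttr cells against 0.254 and 0.105 in high-Ttr cells. The fold within a mouse was 46.0 (39.4 to 53.6) in R1 and 124.5 (99.9 to 154.2) in R2. Levels and folds within a mouse keep Ttr in the totals, a median of 11.2% and 13.0% of UMIs in high-Ttr cells. With Ttr out, the fold of Ifitm3 was 41.1 and 109. The log2 fold change of Ifitm3 was 5.45 (SE 0.36, adjusted p = 2.59e-49 in edgeR), or 5.83 above the median of all genes. A UMI of Ifitm3 was found in 53 of 59 and 16 of 19 low-Ttr cells (89.8% and 84.2%), at a lower depth than in the high-Ttr cells, and in 81.4% and 68.4% of them against 4.55% and 2.21% of high-Ttr cells after thinning to 2000 UMIs. The median low-Ttr cell held 3 UMIs in R1 and 4 in R2, with maxima of 29 and 20, against a median of 0 and maxima of 10 and 6 in high-Ttr cells.

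**Figure D4:**
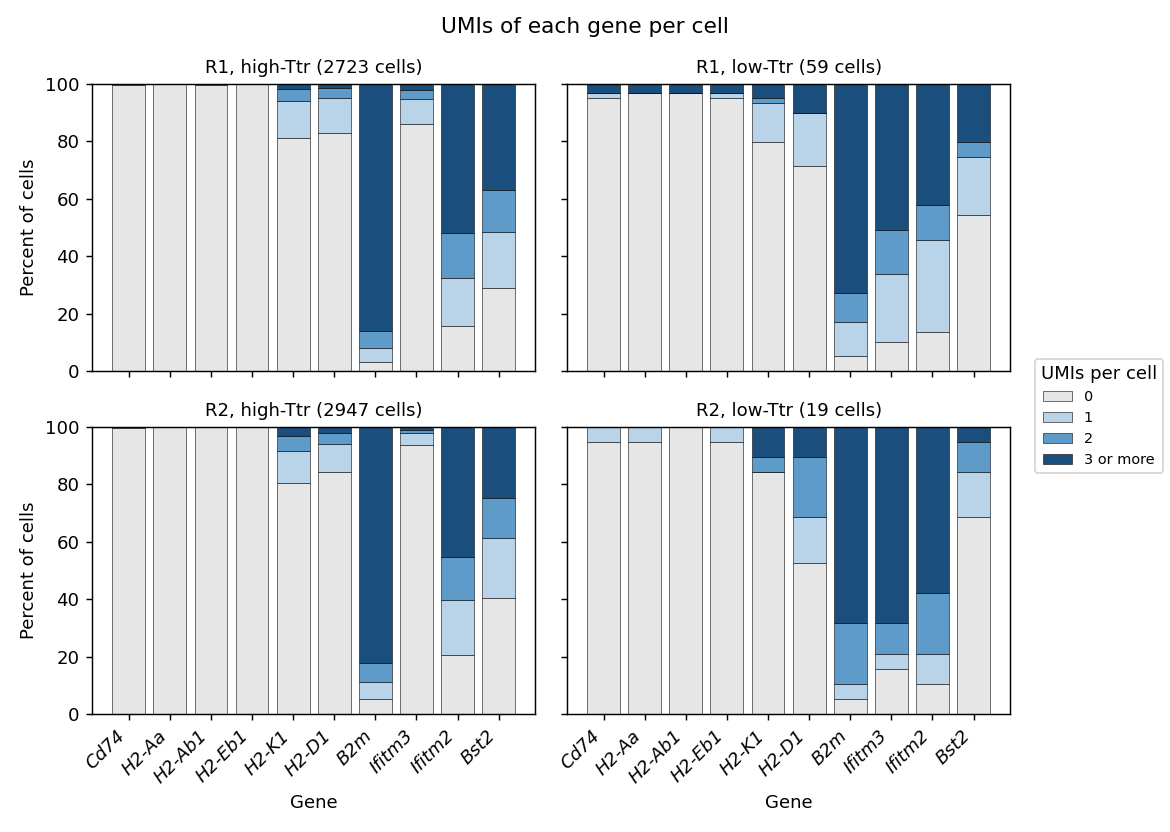
Percent of cells with 0, 1, 2 or 3 or more UMIs of each gene, by mouse (rows) and class of cells (columns). In high-Ttr cells 61 of 2723 and 33 of 2947 cells hold 3 or more UMIs of Ifitm3, in low-Ttr cells 30 of 59 and 13 of 19.

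Ifitm2, which differs from Ifitm3 in being abundant in high-Ttr cells, was found at 7.74 and 7.57 UMIs per 10000 in low-Ttr cells against 3.47 and 3.05 in high-Ttr cells. Its fold within a mouse was 2.23 (1.88 to 2.62) and 2.48 (1.93 to 3.14), and the log2 fold change of 0.46 (SE 0.31, adjusted p = 0.457 in edgeR) was not called. That value lay 0.85 above the median of all genes. With library totals in place of TMM the log2 fold change of Ifitm2 was 1.07 and was called. Bst2 stood at 4.05 and 1.65 UMIs per 10000 in low-Ttr cells against 2.64 and 1.74. Its fold was 1.54 (1.21 to 1.92) in R1 and 0.944 (0.528 to 1.56) in R2, where the interval includes no change. The log2 fold change of Bst2 was -0.42 (SE 0.35, adjusted p = 0.611 in edgeR), or -0.03 from the median of all genes. The sign for Bst2 turned to 0.19 with library totals.

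Of the class I members, H2-D1 was called and the other 2 were not. H2-D1 held 58 (R1) and 19 (R2) UMIs in low-Ttr cells, at 3.01 and 2.09 UMIs per 10000 against 0.278 and 0.253 in high-Ttr cells, a fold of 10.8 (8.15 to 14.2) and 8.26 (4.94 to 13.0). Its log2 fold change was 2.50 (SE 0.43, adjusted p = 3.22e-07 in edgeR), or 2.89 above the median of all genes. H2-K1 held 25 and 13 UMIs in low-Ttr cells, at 1.30 and 1.43 UMIs per 10000 against 0.300 and 0.345. Its log2 fold change of 1.32 (SE 0.51, adjusted p = 0.0750 in edgeR), or 1.71 above the median of all genes, did not pass the threshold. H2-K1 passed it in edgeR without TMM at an adjusted p of 0.00153 and among cells of 2000 to 6000 UMIs at 0.0268. B2m was at 14.9 and 10.4 UMIs per 10000 in low-Ttr cells and at 9.29 and 10.1 in high-Ttr cells, with a fold of 1.60 (1.42 to 1.80) in R1 and 1.03 (0.837 to 1.27) in R2. With Ttr out of the totals, the fold was 1.43 and 0.908 for B2m and 9.70 and 7.24 for H2-D1. The log2 fold change of B2m was -0.39 (SE 0.30, adjusted p = 0.564), or -0.01 from the median of all genes, and it turned to 0.22 with library totals.

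The 4 class II genes were called higher in low-Ttr cells, with log2 fold changes from 6.24 for Cd74 to 7.79 for H2-Eb1, yet 157 of the 158 Cd74 UMIs, all 42 of H2-Aa, all 48 of H2-Ab1 and 41 of the 42 of H2-Eb1 in the low-Ttr cells of R1 came from 2 macrophage-marked cells. In R2 the low-Ttr cells held 1, 1, 0 and 1 UMIs. Without the macrophage-marked cells, 1 and 0 UMIs of Cd74 were left in low-Ttr cells of R1 and R2 and 21 and 8 in high-Ttr cells, the log2 fold change was 1.72 (SE 2.997, adjusted p = 0.825 in edgeR), and the other 3 genes no longer passed the filter on low counts. The class II calls thus rested on these 2 cells of R1.

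Low-Ttr cells were of several kinds, and markers of these kinds moved with the comparison. All 8 macrophage or microglia genes tested, all 6 fibroblast genes and all 5 genes of the Pax6 and Dkk3 list were called higher, and all 7 RPE genes tested were called lower. The lists called higher also defined the kinds of low-Ttr cell. The study had reported Pax6, Dkk3 and Aldoc as high, and Ttr and visual cycle genes as low, in a cluster of these same cells. The calls of these lists therefore restate how the cells were chosen and marked and are no support. The macrophage and fibroblast calls rested on few cells. Each of the 8 macrophage genes was found in 3.39% (R1) and 5.26% (R2) of low-Ttr cells. The fibroblast genes were found in 1.69% to 6.78% in R1 and 5.26% to 15.8% in R2. The summed level of the macrophage list was 0.178 and 0.0504 UMIs per 10000 in high-Ttr cells and 10.4 and 13.4 in low-Ttr cells, with 0 UMIs of Cx3cr1 (R1) and of Ptprc (R2) in high-Ttr cells. That of the fibroblast list was 0.0214 and 0.0812 against 30.9 and 22.0, and that of the Pax6 and Dkk3 list 1.04 and 0.764 against 58.6 and 45.4. The members' levels by kind of cell follow.

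Ifitm3 lay above its high-Ttr level in every kind of low-Ttr cell, with only 1 UMI in the single macrophage-marked cell of R2. It stood at 10.9 (9.25 to 12.7) and 11.4 (8.99 to 14.4) UMIs per 10000 in Pax6/Dkk3-marked cells, at 19.3 and 34.5 in fibroblast-marked cells, at 10.7 and 13.6 in cells marked by none of these lists, and at 24.1 in the 2 macrophage-marked cells of R1 against 3.37 (1 UMI) in that of R2. In the Pax6/Dkk3-marked cells alone, 39 of 44 and 9 of 11 cells had a UMI, and the log2 fold change against high-Ttr cells was 5.28 (SE 0.48). High-Ttr cells that were themselves marked by Pax6, Dkk3 and their companions, 10 in R1 and 2 in R2, held 5 and 0 UMIs of Ifitm3.

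H2-K1 and H2-D1 divided these kinds more sharply. In Pax6/Dkk3-marked cells H2-K1 was at 0.337 (0.110 to 0.787) and 0.309 (0.0375 to 1.12) UMIs per 10000, within counting error of the 0.300 and 0.345 of high-Ttr cells. Its log2 fold change there was -0.71 (SE 0.86), or -0.22 from the median of all genes in that fit. H2-D1 was at 0.877 (0.467 to 1.50) and 1.24 (0.534 to 2.44) in these cells, above the 0.278 and 0.253 of high-Ttr cells by 3.16 times (1.67 to 5.43) and 4.90 times (2.11 to 9.71), but with 13 and 8 UMIs the log2 fold change of 1.17 (SE 0.67, adjusted p = 0.454 in edgeR) was not called. In macrophage-marked low-Ttr cells H2-K1 reached 22.3 and 23.6 and H2-D1 61.3 and 16.8, and in fibroblast-marked cells H2-D1 was at 5.50 and 8.61. Without macrophage-marked cells the log2 fold change of H2-D1 was 1.74 (SE 0.52, adjusted p = 0.0112) and that of H2-K1 was 0.37 (SE 0.61, adjusted p = 0.814). B2m in Pax6/Dkk3-marked cells was at 13.6 and 9.59, and in macrophage-marked low-Ttr cells at 63.1 and 20.2.

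**Figure D5:**
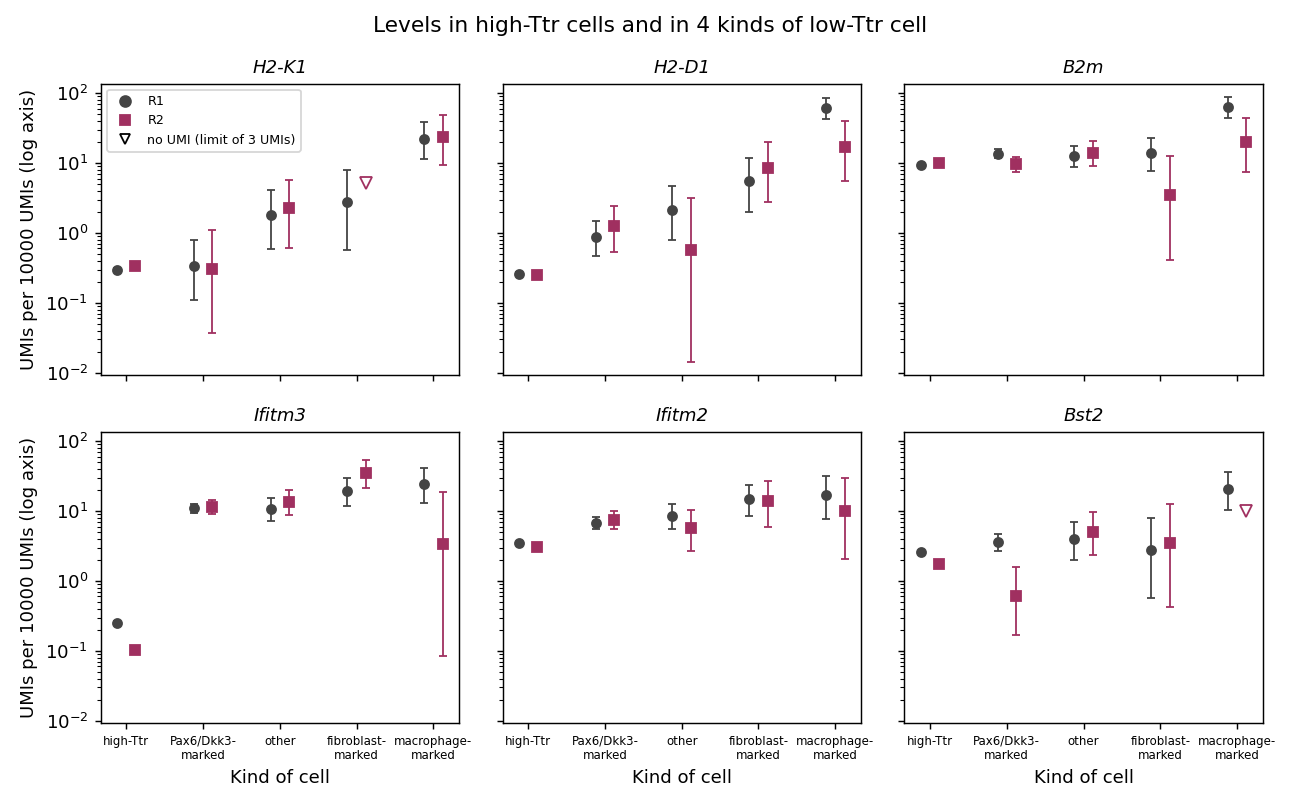
Levels of 6 genes in UMIs per 10000 on a log axis in high-Ttr cells without macrophage markers and in 4 kinds of low-Ttr cell (circles R1, squares R2; bars are exact 95% Poisson intervals, open triangles the limit of 3 UMIs where none was found). In Pax6/Dkk3-marked cells H2-K1 lies at 0.337 and 0.309, near high-Ttr cells, while Ifitm3 lies at 10.9 and 11.4, far above them.

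Partner genes of class I were detected at levels that ranged widely. Of 19 genes for class I processing, 15 were tested between low-Ttr and high-Ttr cells, and 2 were called higher and 0 lower. Of all genes tested, 4.25% were called higher and 6.74% lower. The median log2 fold change of the list was 0.54 beside -0.39 for all genes. Tapbp, which encodes tapasin and bridges class I molecules to the peptide transporter, was at 2.81 and 3.84 UMIs per 10000 in low-Ttr cells against 0.464 and 0.370 (log2 fold change 2.20, SE 0.39, adjusted p = 5.06e-07 in edgeR). The other called gene was Psmb8, an immunoproteasome subunit with 6 and 2 UMIs in low-Ttr cells, which is named here after its values were seen. In high-Ttr cells the chaperones Calr, Pdia3 and Canx were at 4.11, 2.19 and 1.63 UMIs per 10000 in R1 and at 3.31, 1.79 and 1.53 in R2. The transporter subunits Tap1 and Tap2 were at 0.0168 and 0.133 in R1 and at 0.0139 and 0.112 in R2. The class I co-activator Nlrc5 had no UMI in either class or mouse.

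Genes of class II expression and loading differed widely in level among themselves. Of 12 genes, 8 were tested, and 2 were called higher and 0 lower, beside 4.25% and 6.74% of all genes. The median log2 fold change was 1.02, beside -0.39 for all genes. The called genes were Ctss, a cysteine protease that trims the invariant chain and that also stands on the macrophage list (23 and 11 UMIs in low-Ttr cells, log2 fold change 5.83, SE 0.87), and Ifi30, a lysosomal thiol reductase with 25 and 6 UMIs there, which is named after its values were seen. All of these UMIs of Ctss lay in the macrophage-marked low-Ttr cells, 12 and 11 in the 2 cells of R1 and 11 in the single cell of R2. In high-Ttr cells the lysosomal protease Lgmn was at 1.56 and 1.68 UMIs per 10000 and was found in 59.6% and 56.4% of cells. H2-DMb1, a chain of the peptide exchange factor, was at 0.293 and 0.258 in high-Ttr cells, whereas its partner H2-DMa was at 0.0101 and 0.00575.

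Other interferon-stimulated genes were called in part. Of 30 listed genes 20 were tested, and 4 were called higher and 0 lower, beside 4.25% and 6.74% of all genes. The median log2 fold change was 0.74, beside -0.39 for all genes. Isg15, a ubiquitin-like modifier, held 55 and 14 UMIs in low-Ttr cells and 35 and 11 in high-Ttr cells, with a UMI in 28.8% and 26.3% of low-Ttr cells and in 0.845% and 0.305% of high-Ttr cells (log2 fold change 7.32, SE 0.64, adjusted p = 7.89e-28 in edgeR). Ifit1 and Ifit3, which bind or help to bind viral RNA, had log2 fold changes of 4.80 (SE 0.73) and 1.46 (SE 0.41), and Usp18, a protease that removes Isg15, was called with 12 and 5 UMIs in low-Ttr cells and is likewise named after its values were seen. In high-Ttr cells the most abundant genes of the list were Ifi27 at 4.13 and 2.38 UMIs per 10000 and Lgals3bp at 1.64 and 1.16. Cxcl9 had no UMI in either class, and Cxcl10 held 0 (R1) and 4 (R2) UMIs in high-Ttr cells.

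The interferon receptors and their signalling genes were found at low levels in both classes. All 14 were tested, and 2 were called higher and 0 lower in low-Ttr cells, beside 4.25% and 6.74% of all genes. The median log2 fold change was 0.83, beside -0.39 for all genes. Ifngr1, a chain of the interferon gamma receptor, was at 1.35 and 1.43 UMIs per 10000 in low-Ttr cells against 0.191 and 0.220 (log2 fold change 2.00, SE 0.54, adjusted p = 0.00331 in edgeR), and the other called gene was the feedback inhibitor Socs3, also named after its values were seen. Socs3 held 7 UMIs in low-Ttr cells of each mouse, in 5.08% of the 59 cells of R1 and in a single cell of R2. In high-Ttr cells Ifnar1 was at 0.119 and 0.0887, Ifnar2 at 0.256 and 0.286, and Irf9 at 0.186 and 0.129.

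High-Ttr cells with 3 or more UMIs of Cd74 were also set against high-Ttr cells with none. The sums held 2 cells of R1 and 1 cell of R2, 1 of them in each mouse macrophage-marked, so the test compares those cells and not conditions. Of 11155 genes, 42 (0.377%) were called, 21 (0.188%) in each direction, but with library totals in place of TMM 28 were higher and 0 lower. The median log2 fold change of all genes was -7.86, since most genes had no UMI in so few cells. All 7 macrophage genes tested were higher, among them C1qc with 52 and 17 UMIs in the Cd74-high cells and Ctss with 44 and 10. The marked cells carried 9 (R1) and 8 (R2) of the 10 genes of that same list. The calls of the list therefore restate how these cells were marked and are no support. H2-D1 held 37 and 4 UMIs in them, 36 of the 37 in 1 cell, with a log2 fold change of 4.27 (SE 0.80, adjusted p = 7.06e-05 in edgeR) that was not called after thinning to 2000 UMIs per cell (adjusted p = 0.878). H2-K1, B2m, Ifitm3, Ifitm2 and Bst2 were not called (adjusted p = 0.932 for each in edgeR), although B2m was called without TMM (log2 fold change 1.49, adjusted p = 0.00659), and H2-Aa, H2-Ab1 and H2-Eb1 did not pass the filter on low counts. Outside the lists, Tmsb4x, an actin-binding peptide that is abundant in blood cells, held 95 and 59 UMIs (log2 fold change 4.24, SE 0.42). Of the 8 RPE genes of the list, 7 were tested, and 0 were called higher, 3 lower and 4 not at all. Those called lower were Rlbp1, Rdh5 and Rgr, and only with TMM. Rlbp1 and Rdh5 carry and oxidize visual cycle retinoids. Their log2 fold changes were -1.55 (SE 0.33) and -1.14 (SE 0.27). In R1, Rdh5 held a similar share in both classes, 166 of 20269 UMIs in Cd74-high and 214484 of 25463346 in Cd74-negative cells. In R2 it held 86 of 12707 and 271802 of 29411392. Other genes called lower with TMM were Dbp, Prr13, Cox6c, Inpp5k, Chchd10, Cox6a1, Tceb2 and Arl6ip1, with log2 fold changes from -2.80 to -1.61. A comparison without the macrophage-marked cells was not possible, because R2 then has 0 cells with 3 or more UMIs of Cd74.

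Pairs of members were then compared within high-Ttr cells without macrophage markers, 2721 in R1 and 2945 in R2, after each cell had been thinned to 2000 UMIs. A UMI of H2-D1 was found in 5.16% of cells with a UMI of H2-K1 (2.25 to 9.92) and 5.07% of cells without (4.25 to 5.99) in R1, and in 6.25% (3.04 to 11.2) and 4.31% (3.59 to 5.13) in R2. Before thinning these shares were 22.2% and 16.1% in R1 and 23.9% and 13.9% in R2. Bst2 was found in 48.8% of cells with a UMI of Ifitm3 (39.7 to 58.0) and 35.3% of cells without (33.5 to 37.2) in R1, and in 33.3% (22.0 to 46.3) and 26.9% (25.2 to 28.5) in R2, where the intervals overlap. Ifitm3 was found in 10.3% of cells with H2-K1 (6.02 to 16.2) and 4.17% of cells without (3.43 to 5.02) in R1, but in 1.88% (0.388 to 5.38) and 2.15% (1.65 to 2.76) in R2. Ifitm2 was found in 57.2% of cells with H2-D1 (48.5 to 65.6) and 46.4% of cells without (44.5 to 48.4) in R1, but in 38.5% (30.1 to 47.4) and 42.8% (41.0 to 44.7) in R2. Of all pairs of the 6 genes, the intervals were separate for these pairs of Ifitm3 and Bst2, H2-K1 and Ifitm3, and H2-D1 and Ifitm2 in R1, and for no pair in R2.

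Genes most like 3 of the members across high-Ttr cells were ranked by the lower of the correlations of log2(UMIs per 10000 + 1) in the 2 mice. This is a description without a test. The ranking held 10386 genes, each found in 1% or more of high-Ttr cells in both mice. H2-Aa, H2-Ab1, H2-Eb1 and the genes of the macrophage list lay below this limit and could not appear. All cells of a mouse share 1 library, and depth enters every value. For Cd74 these were Cd14, a lipopolysaccharide co-receptor of myeloid cells (r = 0.41 in R1 and 0.31 in R2), Dusp1 (0.21 and 0.18), Ifi27l2a (0.24 and 0.14), Fos (0.14 and 0.13) and Zfp36 (0.13 and 0.19), which rest on the few cells with Cd74. For H2-D1 the 5 highest values, with Itm2b first, lay at or below 0.08 in both mice. For Ifitm3 the first were Bst2 (0.13 and 0.08) and Ifi27l2a (0.11 and 0.06), and the others were at or below 0.07. Correlations of this size in sparse counts are no finding.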

How the data were processed

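The authors aligned 10x Genomics 3′ reads to GRCm38 with Cell Ranger 1.2.0 after bcl2fastq 2.20.0.422 (versions per the labels and the methods) and deposited whole-number UMI counts per gene and cell, not normalized. The labels name another version of the chemistry than the methods, and the deposited barcodes were 14 bases long. R1 held 26034378 UMIs and R2 29732969. From these counts, cells were filtered, classed by Ttr, and summed per mouse and class in Python 3.11.15, with Ttr (or Cd74, where it chose the cells) left out of the sums. Sums were tested in R 4.3.3 with edgeR 4.0.16 (TMM, filterByExpr, quasi-likelihood test, false discovery rate 0.05, mouse as a block because both classes come from the same mouse). The scripts were tested on simulated data. No doublets were removed; leaving out the 4% of cells with the highest Scrublet score (scanpy 1.11.5) was an alternative, as were DESeq2 1.42.0, other limits and thinning. The unit of a level is UMIs per 10000 UMIs of the class, Ttr included, and folds within a mouse use these levels. The limit set by an absence of UMIs was 3 UMIs.

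The members, the gene lists, the marker lists and the comparisons were chosen with earlier results of these data known. Named genes were the 10 members, at most 6 called genes per list with the same direction in both mice and 10 or more UMIs in each mouse in the higher class, the 8 largest called fold changes in each direction of the Cd74 comparison with 20 or more such UMIs, and the 5 most correlated genes for Cd74, H2-D1 and Ifitm3. The correlated genes came from those found in 1% or more of high-Ttr cells in both mice. Other list genes named in the text were chosen after their values were seen. The symbols Trac and Mx2, each on a list, were not matched in the files. Promoters came from RefSeq (GRCm38.p6) and gene positions from GENCODE. The p-values come from sums of 2 mice and from dispersions that edgeR moderated across all genes tested. They are no measure of the spread of a single gene between mice. The SE given with a log2 fold change was its size divided by the square root of the F statistic of the edgeR test. The SE is likewise no measure of that spread. SoupX was not used here.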

Additional observations from a re-analysis of the deposited data

Results flagged for a closer look

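Ifitm3 was present in low-Ttr cells that the filters on cells had left out of the comparisons as reported. All of these UMIs enter the alternative with no limit on mitochondrial UMIs, which holds 64 and 21 low-Ttr cells. In R1, 9 such cells, with a median of 2996 UMIs, held 28 UMIs of Ifitm3 in 4 cells, a level of 10.1 UMIs per 10000. In R2, 2 such cells held 15 UMIs, a level of 23.3. These values lie above the 0.140 UMIs per 10000 in the 50 high-Ttr cells that were left out in R1 and the 0 UMIs in the 26 that were left out in R2. The left-out cells held 0 UMIs of Cd74 in both mice.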

How the results depend on the processing

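The count of 1272 genes called between low-Ttr and high-Ttr cells was 814 after thinning to 2000 UMIs per cell and 772 with Pax6/Dkk3-marked low-Ttr cells only, and lay between 856 and 1353 under the other alternatives, apart from the block. DESeq2 called 1167 genes and gave 5193 of 16739 no adjusted p. The 42 genes called between Cd74-high and Cd74-negative cells became 17 after thinning and 87 with a limit of 2 UMIs of Cd74. The share of high-Ttr cells of R2 with 3 or more UMIs of Cd74 fell from 0.0339% to 0 without macrophage-marked cells and to 0 when thinned. In R1 that share went from 0.0734% to 0.0375% with a Ttr limit of 7%. With Ttr limits of 2% and 7%, R1 held 52 UMIs of Cd74 in low-Ttr cells and 21 in high-Ttr cells, not 158 and 125. Cd74 was still called (log2 fold change 6.74), but H2-Aa and H2-Ab1 no longer passed the filter on low counts. Signs turned for B2m (0.22 without TMM, 0.00516 with cells of 2000 to 6000 UMIs), for Bst2 (0.19 and 0.0696) and, with Pax6/Dkk3-marked cells only, for Cd74 (-0.26) and H2-K1 (-0.71). From the median of all genes in that last fit, Cd74 lay at 0.23 and H2-K1 at -0.22. From the median of the fit without TMM, B2m lay at 0.02 and Bst2 at -0.01, beside -0.01 and -0.03 in the main fit. In the Cd74 comparison signs turned for Ifitm2 (0.52 without TMM) and Bst2 (-0.68 thinned). The cause was not tested. H2-K1 was called with cells of 2000 to 6000 UMIs (1.73, adjusted p = 0.0268 in edgeR). The restriction to Pax6/Dkk3-marked cells and that to 2000 to 6000 UMIs were chosen after seeing the data. Ifitm3 was called between low-Ttr and high-Ttr cells in every fit.

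Without the replicate block, which pairs the classes of 1 mouse, 2261 and 194 genes were called in the 2 comparisons, and H2-K1 was called between low-Ttr and high-Ttr cells (1.30, adjusted p = 0.00332 in edgeR). Leaving out a mouse leaves no test. The log2 fold changes within 1 mouse used library totals in place of TMM, unlike the main fits. They ranged from 5.37 to 6.78 for Ifitm3, from 2.87 to 3.29 for H2-D1 and from -0.13 to 0.53 for B2m. The fit of both mice without TMM gave 6.05, 3.10 and 0.22 for these genes. In the Cd74 comparison, fits without macrophage-marked cells or without any macrophage UMI were not run, since R2 then holds 0 Cd74-high cells, and DESeq2 was not used because it failed on simulated data. With 19 low-Ttr cells in R2, counting error limits every value of that class.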
